A study of Caenorhabditis elegans with 6 samples.

Results

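Sites of the transcription factor HAM-1 that lie close together on Caenorhabditis elegans chromosomes were examined in hermaphrodites at the L4 larval stage. Overlapping regions of the authors' combined list were merged into separate stretches of DNA, and neighbouring stretches were joined into a chain where the gap between them was at most 1000 bp. Chains of 3 or more stretches held 1035 regions of the 8430 in that list, which is 12.3% (11.6 to 13.0%, 95% Wilson interval), in 926 stretches and 269 chains. These are called grouped regions. The 5651 regions in stretches with no neighbour that close are called lone regions, and the remaining 1744 lie in chains of 2 stretches. Grouping was defined by position alone, so the closeness of grouped regions is a description and not a result.

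The HAM-1 protein binds DNA through a winged-helix domain and acts in asymmetric divisions of neuroblasts, the precursors of neurons. Transcription factors often contact a regulatory element at several places, and genes with elaborate expression patterns can have several separate elements along their DNA. Chromatin immunoprecipitation followed by sequencing (ChIP-seq) shows where a factor lies on DNA averaged over all cells of the animal. It does not show whether neighbouring sites are occupied in the same cell.

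All samples came from strain OP102. It carries the unc-119 allele ed3 and the transgene wgIs102, in which ham-1 is fused to TY1, EGFP and FLAG tags and is accompanied by a functional unc-119 gene. The transgene was introduced by biolistic transformation, and per the labels the strain was not outcrossed, so the data rest on 1 transgenic line. Worms grown at 20 °C were fixed with 2% formaldehyde, and DNA bound by the fusion protein was recovered with antibodies against GFP in 3 ChIP replicates. The 3 input samples, each 10% of the lysate before precipitation, were not analysed here. The antibody sees the tagged protein, and no strain without the tag was analysed here.

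The replicate lists hold 30000, 30000 and 29621 regions for replicates 1, 2 and 3. Their read depth is unknown, because the lists hold no counts. Each region carries a number, its place in the authors' order, in which 1 is taken as the strongest. The deposited score cannot separate the strongest regions, since 64.2% of combined regions share its highest value of 4.04. That value was held by 681 grouped regions (65.8%) and by 64.7% of lone regions. Coordinates are on WormBase build WS220 as the files give them. The gene table at hand is on another build, so the genes beside these chains were not analysed here.

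Most chains were short. There were 190 chains of 3 stretches, 52 of 4, 16 of 5, 10 of 6 and 1 of 8, and none of 7. From the first base of its first stretch to the last base of its last, a chain spanned a median of 2669 bp, with a middle range (quartiles) of 2293 to 3183 bp and extremes of 1228 and 8848 bp. Stretches covered a median of 50.5% of a chain's span, the rest being gap. Together the chains took up 785 kb, or 0.784% of the nuclear span of 100.2 Mb.

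The longest chain lay on chromosome X from 6735440 to 6744287 and held 12 regions in 8 stretches. Its best stretch was the last, from 6743535 to 6744287, which stood at place 181 of the combined list and at places 158, 130 and 391 in replicates 1, 2 and 3. The same coordinates are listed again at place 8067 of the combined list. Another strong stretch, from 6737603 to 6738010, stood at 362 in the combined list and at 262, 448 and 365 in the replicates. The stretch from 6742014 to 6742526 followed at 750, and at 537, 1342 and 358. These 3 strong sites were separated by weaker ones. The first stretch, from 6735440 to 6735899, stood at place 6868, and at 12063, 6347 and 10241 in the replicates. All 12 regions were met by all 3 replicate lists, and gaps between the stretches ran from 303 to 951 bp. The same DNA thus held strong and weak regions side by side in every library.

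**Figure D1:**
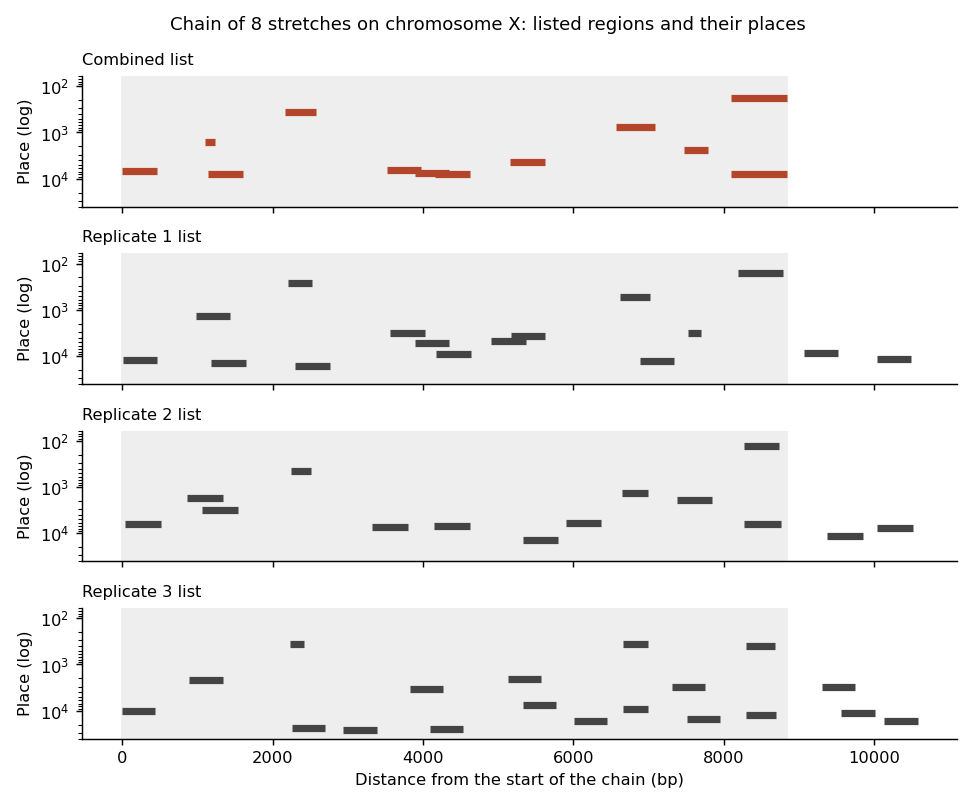
Regions listed in and around the chain of 8 stretches on chromosome X, drawn as bars from start to end (x axis, bp from the start of the chain, which is shaded) against their place in each list (y axis, log scale, strongest at the top). The strong regions that start 2163, 6574 and 8095 bp into the chain stand out in the combined list and in each of the 3 replicate lists, with weaker regions between them.

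The other 7 of the 8 chains with most stretches outside chromosome I each had 6 stretches and lay on II (4 chains), III (2) and X (1). On chromosome III, the chain from 12612226 to 12617311 had its best region at the left edge, from 12612226 to 12612887, at place 78 and at replicate places 90, 200 and 35. Its right edge, from 12616874 to 12617311, stood at 740, and at 652, 841 and 804, while the stretches between them stood at 3197 to 6615. Both ends of this chain were therefore strong in every list, and its middle was weaker than its ends. The best middle places were 3210, 2543 and 2789 in replicates 1, 2 and 3. Also on III, the chain from 9617729 to 9623357 held 1 strong stretch, from 9618916 to 9619777, at place 87 and at 92, 69 and 139. Its other 5 stretches stood at 4893 to 8174.

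The chain on chromosome II from 10541849 to 10549713 began with an unusually wide region of 2548 bp, ending at 10544396, which stood at place 225 and at 346, 143 and 155. It ended with another of 1074 bp, from 10548640 to 10549713, at 635 and at 359, 1772 and 429. On the same chromosome, the chain from 9600125 to 9604495 had its best stretch at 9603275 to 9603726, at place 229 and at 134, 299 and 420. In 3 of the longest chains no stretch was within the first 1000 places of the combined list. These were on II from 6825654 to 6830444, on X from 11477614 to 11483004 and on II from 14598494 to 14602861, whose best stretches stood at 2255, 2562 and 3669. In replicates 1, 2 and 3 the first of these chains had best places of 1509, 2377 and 1590. The second had 2266, 2392 and 807, the last being within the first 1000 places of replicate 3. The third had 1184, 1808 and 2556. By the combined order, a long chain was thus not always built around a strong site.

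A second set was named by the strength of its best region. The chain on chromosome V from 9544273 to 9547249 came first outside chromosome I. Its last stretch, from 9546774 to 9547249, stood at place 34 and at 37, 31 and 38, and its first, from 9544273 to 9544585, at 503 and at 753, 661 and 407. The stretches between stood at 4680 and 5760. Next was III from 2785843 to 2788507, whose first region stood at place 37 and at 42, 39 and 23, followed by stretches at 5406 and 7734. On IV, the chain from 17278260 to 17281597 had regions at 48, 5273 and 723 along its length, the first being at 46, 60 and 63 in the replicates. The remaining chains of this set were on III from 4280401 to 4282594 (best place 74), on X from 14560082 to 14562763 (96) and on X from 6090751 to 6093457 (101), together with the chains on III already described. In each of these 8 chains the weakest stretch stood at 5273 or later. The chains were chosen for a strong region, and the weakest of several stretches tends to stand late. This contrast of strong and weak sites therefore follows in part from the choice.

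Stretches of unlike place lay together in most chains. The best stretch of a chain stood at a median place of 1666 and the weakest at 6546, and the median distance between them was 4152 places. Of the 269 chains, 218 held stretches from both the stronger and the weaker 50% of the list. Another 30 lay wholly in the stronger part and 21 wholly in the weaker. Each part is 50% of the list, so most chains would hold both parts even if places were unrelated to chains. The count for unrelated places was not computed, and these counts are not read as a trait of chains. A stretch within the first 1000 places was present in 92 chains (34.2%), at least 2 such stretches in 24, and in 1 chain all stretches were that strong. Of all combined regions, 11.9% are within the first 1000 places, and each chain has several chances to hold one. Longer chains had better best places, with a median of 1768.5 for 3 stretches, 1584 for 4, 808 for 5 and 227 for 6. A chain with more stretches has more chances of a low number, so this order follows in part from the count of stretches.

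Places of neighbours in a chain showed almost no correlation over the whole list. Across the 657 pairs of neighbouring stretches within chains, the places had a Spearman rho of 0.0050 in the combined list. In the lists of replicates 1, 2 and 3 rho was 0.0097, 0.023 and 0.042, over 645, 647 and 628 pairs. Neighbouring lone stretches, which lie farther apart, had a rho of 0.024 over 4400 pairs in the combined list. With chains rebuilt in the strongest 50% of the list, rho was 0.23 over 97 pairs. It was -0.018 with unmerged rows chained by midpoints and -0.015 with the score. These pairs share chains and libraries, and no p is given. The best stretch of a chain was at an edge in 129 of the 190 chains of 3 stretches (67.9%), where 2 of the 3 positions are edges. In chains of 4 it was at an edge in 25 of 52.

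Stretches inside a chain were rarely closer than about 600 bp from midpoint to midpoint. Their midpoints were a median of 1010 bp apart, with quartiles of 830 and 1233.5 bp, and 31 of the 657 spacings (4.72%) were under 600 bp. The gaps themselves had a median of 585 bp and ranged from 3 to 1000 bp, and 34 (5.18%) were under 200 bp. In chains of 2 stretches, the median gap was 639 bp and the median spacing 1059 bp. The listed regions are most often 460 bp wide, and regions that touch are merged, so spacings shorter than that width cannot occur between 2 such regions.

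**Figure D2:**
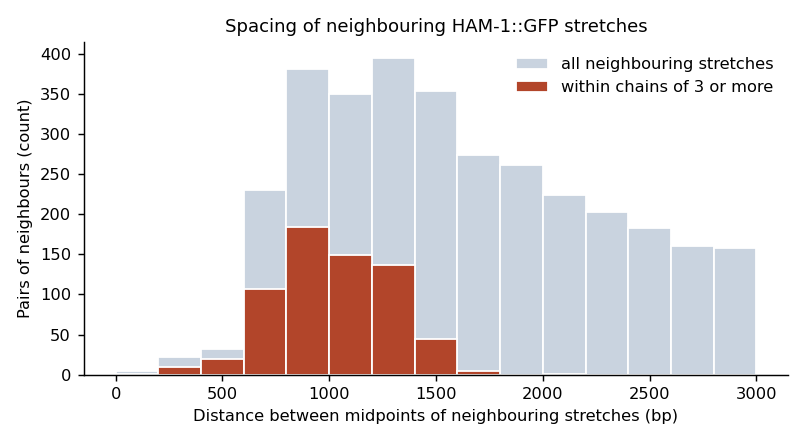
Number of neighbouring pairs of stretches (y axis) by the distance between their midpoints in bins of 200 bp (x axis, bp), for all neighbours in the combined list (pale) and for those inside chains of 3 or more (dark). Few pairs of either kind are under 600 bp; pairs within chains are most numerous from 800 to 1000 bp, with 184.

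The spacing of the same neighbours was then compared between libraries. Between replicates 1 and 2 the spacing differed by a median of 75 bp over 634 neighbours, and 59.1% of spacings were within 100 bp of each other. For replicates 1 and 3 the median difference was 87 bp over 615 neighbours, with 54.8% within 100 bp. For replicates 2 and 3 it was 93.5 bp over 616, with 52.8% within 100 bp. In 1 of 10 neighbours the spacing differed by more than 256 bp (replicates 1 and 2), 297 bp (1 and 3) or 314.5 bp (2 and 3). Across neighbours, the spacings of these pairs of replicates had a Spearman rho of 0.85, 0.80 and 0.80. The replicate regions compared were those that overlap the same combined stretches, which ties each spacing to that of the combined list. Small differences and a high rho are thus partly built in, and they are not taken as separate evidence of a fixed spacing.

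Chain limits depend on a single value, 1000 bp, and nothing in the gaps marks that value. The combined list had 97 gaps within the last 50 bp below the limit and 87 within the first 50 bp above it. The 71 stretches of chains beside a gap just inside the limit stood at a median place of 3548, and the 161 stretches outside the chains beside a gap just past it stood at 4181.

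Grouped regions were about as strong as lone regions in the combined list and slightly better placed in the replicate lists. In the combined list, grouped regions had a median place of 4270, with quartiles of 2227.5 and 6216.5, against 4124 for lone regions, with quartiles of 2024.5 and 6287.5. Within the first 1000 places lay 122 grouped regions (11.8%) and 12.1% of lone regions, where 11.9% of all combined regions do. In replicate 1 the best-placed region overlapping each grouped region stood at a median of 3723, against 4038 for lone regions. The medians were 3821 and 4028 in replicate 2, and 3615 and 4283 in replicate 3. As a share of list length, grouped minus lone was -1.05, -0.69 and -2.26 percentage points, a mean of -1.33 ± 0.82 (SD, n = 3). All 3 replicates pointed the same way (two-sided exact sign-flip permutation test, p = 0.25, which is the smallest that 3 replicates allow). The test therefore cannot pass a threshold of 0.05.

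By chromosome, grouped regions had the lower median place on 6 of 6 chromosomes in replicates 1 and 3. In replicate 2 this held on 5 of 6, chromosome III being the exception, but in the combined list on only 3 of 6. On I and X the combined list thus went against all 3 replicates, and on III against replicates 1 and 3. A grouped region met 1.46 ± 0.029 regions of a replicate list (SD, n = 3) and a lone region 1.36 ± 0.035, and taking the best of more regions lowers the place found. With the replicate region of largest overlap in its stead, the mean difference was -0.86 points. It was -0.64 points over stretches of a single region, -2.44 for chains of 4 or more stretches and -4.15 with unmerged rows chained by midpoints. A gap limit of 500 bp, with 149 grouped regions, turned the direction, to a mean of 0.56 points (exact permutation p = 0.75).

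**Figure D3:**
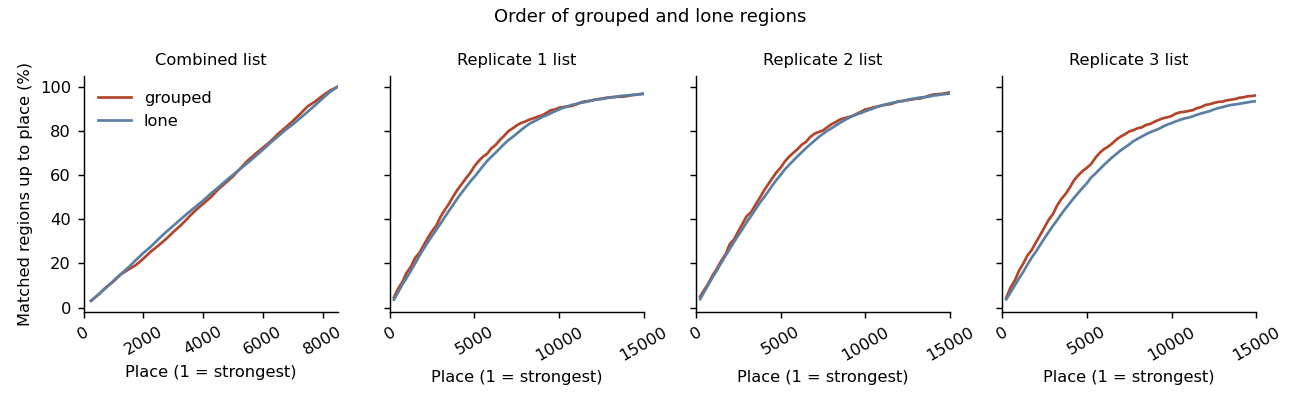
Cumulative percentage of grouped (red) and lone (blue) regions that have a match up to a given place (x axis, 1 being the strongest) in the combined list and in the 3 replicate lists. The curves nearly coincide in the combined list, with medians of 4270 and 4124; in the replicate lists the grouped curve lies slightly to the left, with medians of 3723 against 4038, 3821 against 4028 and 3615 against 4283.

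The lists of the replicates contained nearly all grouped regions. By at least 1 bp, all 3 met 1000 of 1035, or 96.6% (95% Wilson interval 95.3 to 97.6%), against 96.3% of lone regions and 96.3% of all combined regions. The sources used here do not say how the combined list was made, and recovery in the replicate lists is not taken as separate evidence. Where a match needed 50% of both regions, the share met by all 3 lists differed by -3.18 points, grouped minus lone (95% interval -6.30 to -0.18, counting error only). With a gap limit of 500 bp it was -1.90 points (-6.79 to 0.76). The 35 others were each met by 2 lists. Replicate 1 met every stretch of 261 of the 269 chains, replicate 2 of 263 and replicate 3 of 250. Of the 657 gaps within chains, 18, 23 and 27 were bridged by 1 region of replicates 1, 2 and 3 that touched the stretches on both sides. The counts for gaps bridged by overlapping replicate regions were 22, 35 and 36. The separate stretches were therefore mostly separate regions in each library too.

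Judged on its own, each replicate list gave about as many chains, but often others than the combined list. The rule was applied to the first 8430 nuclear places of each replicate list, the length of the combined list. It placed 13.4%, 11.9% and 13.5% of regions in chains of 3 or more in replicates 1, 2 and 3, or 12.9% ± 0.92 (SD, n = 3), against 12.3% of the combined list. The numbers of chains were 286, 253 and 284, against 269. A combined chain was counted as found again when at least 3 of its stretches met such chains of the replicate. That was so for 149 chains in replicate 1, 146 in replicate 2 and 120 in replicate 3. All 3 replicates found 55 chains (20.4%), 2 found 72, 1 found 106 and none found 36.

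Among the named chains, those on X from 6735440, on III from 12612226, on II from 10541849, on X from 11477614 and on V from 9544273 were found again in all 3 replicates. The chains on III from 2785843 and on IV from 17278260 were found in 1 replicate, and the chain on III from 4280401 in none. These last 3 have 3 stretches each, the fewest a chain can have, so every stretch must be met for the chain to count as found. The chains on X from 14560082 and from 6090751 also have 3 stretches and were found in 2 replicates each. For lone regions, 2.73% ± 0.55 (SD, n = 3) met a chain in the first 8430 places of a replicate list, against 53.0% ± 3.89 of grouped regions. Both groups were defined by closeness in a list pooled from the same libraries. This contrast is therefore largely built in and is not taken as separate evidence for the chains.

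The surroundings of chains held regions off the combined list more often than those of lone sites. On each outer side of a chain or lone stretch there are 1000 bp with no other combined region, by the rule. A replicate region that was not in the combined list lay within 50.6%, 44.1% and 49.6% of the 538 flanks of chains in replicates 1, 2 and 3, a mean of 48.1% ± 3.52 (SD, n = 3). The flanks of lone stretches, 10548 in number, held one in 36.6%, 34.1% and 34.5%, a mean of 35.1% ± 1.35. All 3 values for chains were above all 3 values for lone stretches. These extra regions stood late in the order, the best in a flank having a median place of 15301.5, 14929 and 14840 beside chains. Beside lone stretches the medians were 17462, 17451 and 16794. Most combined regions match early places, so regions off that list stand late largely by how they were chosen. Their weakness is not a result.

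**Figure D4:**
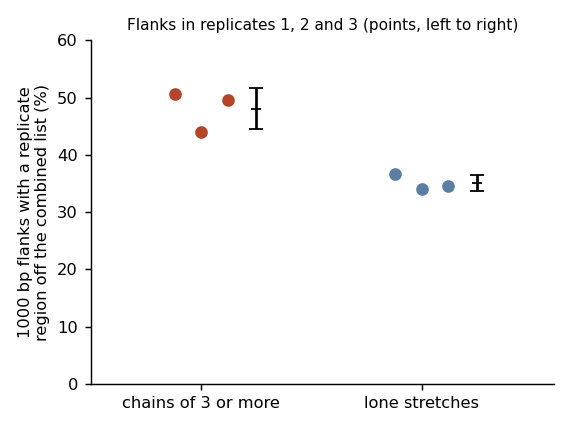
Percentage of outer 1000 bp flanks that hold a replicate region absent from the combined list (y axis), for chains of 3 or more stretches and for lone stretches; points are replicates 1, 2 and 3 from left to right and the bar is the mean with its SD. Chains lie between 44.1% and 50.6%, lone stretches between 34.1% and 36.6%.

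Many lone regions had a neighbour in the replicate lists that was off the combined list. A replicate region off that list lay within 1000 bp of 58.1%, 55.0% and 56.0% of lone regions in replicates 1, 2 and 3, a mean of 56.4% ± 1.63 (SD, n = 3). All 3 replicates had such a neighbour for 1795 of the 5651 lone regions (31.8%), and no replicate had one for 1156 (20.5%). For grouped regions the shares were lower, at 35.2%, 29.6% and 38.7%, and 14.1% had such a neighbour in all 3 replicates. The DNA around a grouped region is partly taken up by other combined regions, which leaves less room for others, so only the outer flanks are compared between the groups. Inside chains, an off-list region touched 27, 16 and 39 of the 657 gaps, or 4.16% ± 1.75. Gaps are shorter than flanks, so the shares are not compared.

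Wide regions were more frequent in chains. The usual width of 460 bp was exceeded by 113 grouped regions (10.9%), where 5.33% of all combined regions exceeded it, and by 225 lone regions (3.98%). Mean width was 433 ± 213 bp for grouped regions and 403 ± 145 bp for lone ones (SD over regions), with a median of 460 bp for both. By size of chain, 46 wide regions were in chains of 3 (7.29% of their regions), 21 in chains of 4 (9.21%), 25 in chains of 5 (27.5%), 18 in chains of 6 (24.7%) and 3 in the chain of 8. In chains of 2 stretches, 111 regions (6.36%) were wider than usual, near the share for chains of 3. Wider regions leave shorter gaps, so width is tied to the rule and no test was made. The regions of the replicate lists that matched did not show it evenly. There, grouped minus lone mean width was 7.66 and 9.57 bp in replicates 1 and 2 but -4.04 bp in replicate 3.

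Some wide regions are rows that repeat the same coordinates. The combined list gives 123 positions more than once, each time with a different place, which adds 133 rows. Such rows made up 67 of the grouped regions (6.47%), at 31 positions, and 137 of the lone regions (2.42%), at 66 positions. In the whole list they made up 3.04%. Grouped repeats had a median width of 650 bp. The region of 2548 bp on chromosome II is listed 5 times, at places 225, 2102, 4379, 4816 and 7148. Other named strong stretches are also repeated, and each place given above for a stretch is that of its best row. The stretch on X from 6743535 is at 181 and 8067, and that from 14560082 at 96 and 6194. On III, that from 12616874 is at 740 and 6535, that from 9618916 at 87 and 1189, and that from 4281850 at 74 and 480. The stretch on II from 10548640 is at 635, 4499 and 4602. With each position counted once there were 999 grouped and 5580 lone regions. Of these, 8.01% and 2.90% were wider than usual, where 3.99% of all distinct positions were, and the mean widths were 415 and 398 bp. By size of chain the wide share was then 5.81% for 3 stretches, 7.21% for 4, 21.4% for 5 (18 of 84) and 12.9% for 6 (8 of 62). In chains of 2 stretches the wide share was 5.18%. Grouping itself was unaffected, because it counts merged stretches.

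Overlapping rows were also counted by stretch. Of the 926 grouped stretches, 101 (10.9%) were made of at least 2 rows, against 368 of 5274 lone stretches (6.98%) and 7.59% of all stretches. At least 2 rows with different coordinates were present in 71 grouped stretches (7.67%, 95% Wilson interval 6.12 to 9.56%) and in 304 lone ones (5.76%, 5.17 to 6.43%), and these intervals overlap. Among stretches of a single region, 43 of 825 grouped ones (5.21%) were wider than usual, against 68 of 4906 lone ones (1.39%). Of all such stretches, 2.06% were.

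Grouped regions occurred on all 6 nuclear chromosomes. Their share of a chromosome's regions was highest on III, at 14.4% or 214 regions (95% Wilson interval 12.7 to 16.2%), and lowest on IV, at 9.93% or 121 regions (8.38 to 11.7%). Chromosome I had 12.7%, X 12.6%, V 12.4% and II 11.0%. Intervals for neighbours in this order overlap, and they cover counting error only, since regions of a chain are not independent. Regions per Mb were most on III (108.3), which also had the largest grouped share, followed by X (102.5) and I (92.9). Chromosome V had the fewest regions per Mb (59.7) but a larger grouped share than II (82.4 per Mb) and IV (69.7 per Mb). The part of density in these shares was not tested. The longest chain had 8 stretches on X, 6 on I, II and III, and 5 on IV and V. The order of chromosomes was another in the replicates. In the first 8430 places of the replicates, the mean share was 13.5% ± 2.28 on II, 13.3% ± 3.07 on V, 13.0% ± 1.18 on IV, 13.0% ± 0.45 on X, 12.9% ± 1.25 on III and 11.8% ± 0.90 on I (SD, n = 3).

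A larger share of grouped than of lone regions lay toward the middle of chromosomes. Each chromosome was divided into 3 parts of equal length. The central parts of autosomes contained 387 of 806 grouped regions, or 48.0% (95% Wilson interval 44.6 to 51.5%), and 1878 of 4468 lone regions, or 42.0% (40.6 to 43.5%). Of all 6614 autosomal combined regions, 43.9% lay there (42.7 to 45.1%). Regions in chains of 2 stretches were not counted apart here. The contrast with lone regions is thus not shown to be particular to chains of 3 or more. Counted by chains, which are closer to independent, 101 of 210 autosomal chains were central, or 48.1% (41.4 to 54.8%), an interval that includes the share of lone regions. On X the central part held 46.3% of grouped, 33.1% of lone and 33.9% of all combined regions, and 26 of 59 chains (44.1%, 32.2 to 56.7%).

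Chromosome IV went the other way, with 33.9% of grouped and 39.8% of lone regions in its centre. There the first part held 61 of the 121 grouped regions. In the replicate lists, cut to the same length, grouped minus lone for the autosomal centre was 9.22, 6.65 and 7.69 points in replicates 1, 2 and 3. On X it was 8.85, 2.75 and 9.56 points. On I, II, III and V the central part was the densest, with 124, 112, 130 and 90.3 regions per Mb. It also had the largest grouped share there, at 15.1%, 12.4%, 15.9% and 13.7%. Density did not run parallel to the grouped share on X and IV. On X the central and last parts had 104.3 and 106 regions per Mb, of which 17.2% and 11.3% were grouped. On IV the central part was denser than the first, with 83.4 against 74.3 regions per Mb, but 8.44% of its regions were grouped against 14.1%. The part of density in the central share was not tested.

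**Figure D5:**
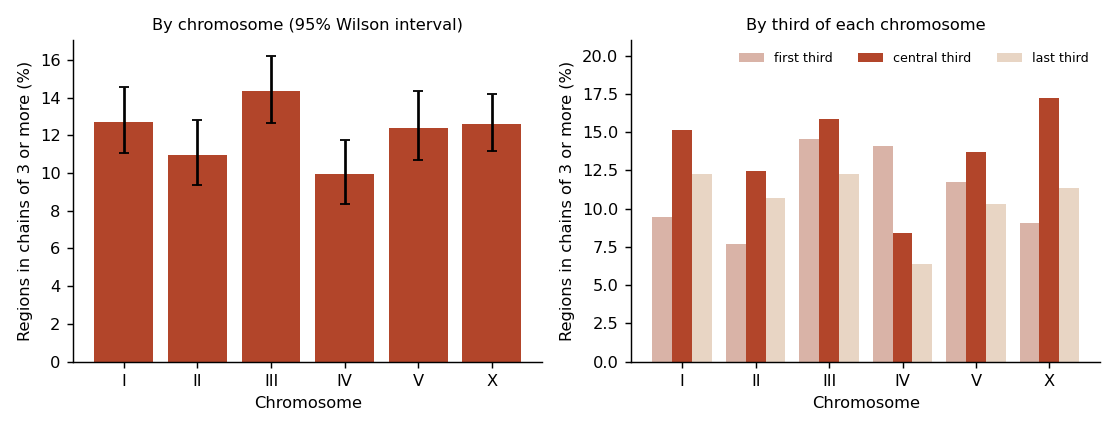
Percentage of combined regions that lie in chains of 3 or more stretches (y axis) by chromosome, with 95% Wilson intervals (left), and by the 3 equal parts of each chromosome (right). Shares run from 9.93% on IV to 14.4% on III, and the central part is the highest on I, II, III, V and X but not on IV.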

How the data were processed

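The members and comparisons were chosen with earlier results of these data known. Regions were called with SPP and IDR, per the source column in the deposited lists, on build WS220, per the file headers. The sources used here name no aligner, version or threshold, and do not say how the combined list was made. The authors deposited 1 score per region, with no stated unit. The number in each region name was used as the place. Mitochondrial regions occur only in the replicate lists and were left out. Stretches, chains, overlaps (at least 1 bp) and medians were computed with pandas 2.3.3, scipy 1.17.1 and numpy 2.4.6 under Python 3.11.15. The code was tested on simulated lists and checked against bedtools 2.31.1, and figures were drawn with matplotlib 3.10.9. Named chains were the 8 with most stretches and the 8 with the best-placed region; chains on chromosome I enter all counts and are not named singly. Mean width was compared because the medians were tied, a choice made after the data were seen. Depth is unknown, and intervals cover counting error only. The labels do not tie replicates to separate cultures, so the p measures a spread that may be technical. Alternatives varied the gap limit, chain size, list length, overlap, order measure and replicates.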

Additional observations from a re-analysis of the deposited data

How the results depend on the processing

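Chain membership depends strongly on the rule. The grouped share was 1.77% with a gap limit of 500 bp, 32.6% with 2000 bp, 4.79% for chains of 4 or more stretches, 3.61% in the strongest 50% of the list and 19.3% with unmerged rows chained by midpoints at most 1500 bp apart; without 1 replicate it was 11.6 to 11.95%. The difference in place was reversed at 500 bp (0.56 points, exact permutation p = 0.75) and kept its direction elsewhere: -4.15 with midpoints, -2.44 for chains of 4 or more, -1.88 with 50% reciprocal overlap, -0.88 with 2000 bp, -0.64 for stretches of 1 region and -1.57 to -0.78 without 1 replicate. Mean width, grouped minus lone, was 29.4 bp and became 19.8 bp with 2000 bp, 65.4 bp for chains of 4 or more, 44.0 bp in the strongest 50%, 37.4 bp with midpoints, 11.1 bp for stretches of 1 region, 16.5 bp with identical coordinates counted once and 20.5 to 33.4 bp without 1 replicate. The difference in the share met by all lists was 0.33 points, and -1.90 with 500 bp and -3.18 with a reciprocal overlap of 50%. The central autosomal difference of 5.98 points was 27.8 in the strongest 50% and 5.97 to 6.32 without 1 replicate. Neighbours' rho was 0.034 with 2000 bp, 0.021 for chains of 4 or more, 0.23 in the strongest 50%, -0.018 with midpoints, -0.015 with the score and 0.017 to 0.023 without 1 replicate. Lone regions with an off-list neighbour were 30.1% with 500 bp, 74.8% with 2000 bp, 49.6% in the strongest 50% and 55.3 to 57.0% without 1 replicate. The cause of these changes was not tested, beyond the shorter or longer window that each gap limit sets. Largest overlap, single-region stretches and identical coordinates counted once were chosen after seeing the data. Where a replicate was left out, only regions met by both other lists were used, so the share met has no value there. No paired analysis was possible because the lists used here hold no values for the inputs, which are numbered like the ChIP libraries; grouped and lone regions were compared within each ChIP replicate.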

Other observations

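In the strongest 50% of the combined list, chains of 3 or more stretches were few and mostly central. They held 152 regions in 43 chains. On autosomes 82 of 116 such regions lay in the central part, or 70.7% (95% Wilson interval 61.9 to 78.2%), against 42.8% of the lone regions of that list (41.0 to 44.7%). On X the shares were 63.9% of 36 grouped regions and 32.8% of lone ones. The contrast was singled out after its value was seen, and regions of a chain are not independent.

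In the whole replicate lists chains were far more common. They held 51.7%, 49.1% and 45.5% of nuclear regions in replicates 1, 2 and 3, in 2428, 2385 and 2314 chains. The longest in replicate 1 lay on X from 8002942 to 8033680, with 41 regions in 30 stretches, of which the best stood at place 239; 14 combined regions lay within it. The longest in replicate 2 lay on IV from 5586291 to 5610821, with 34 regions in 24 stretches, of which the best stood at place 321; 12 combined regions lay within it. The longest of replicate 3 had 27 stretches and held 14 combined regions.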
